A study of Mus musculus with 21 samples.

Results

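The comparison set untreated bone marrow-derived macrophages of mice labelled as Nur77 knockouts against untreated wild-type (WT) macrophages. Its members were 7 of the 21 libraries of the series, the labelled-KO libraries numbered 2, 3 and 4 and the WT libraries numbered 1 to 4 at 0 h, chosen by genotype and time in the sample titles. The study grew macrophages from the marrow of male C57Bl6/J mice of 6 to 12 weeks for 7 days in medium containing L929-conditioned medium, and gave 100 ng/ml of lipopolysaccharide (LPS) for 0, 4 or 18 h before messenger RNA was sequenced. The WT group carried the genotype tag wt and the labelled-KO group the tag cre. The sources used here name no floxed allele, promoter or Cre line and do not say whether the deletion was germline or conditional. The numbers are not said to be separate mice, so p-values reflect the spread from library to library.

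Nur77, encoded by Nr4a1, is an orphan nuclear receptor of the Nr4a family, which also holds Nr4a2 and Nr4a3. It acts without a known natural ligand, is an immediate early gene in many cell types, and is needed for the patrolling, non-classical monocytes of mouse blood. Macrophages grown in L929 medium respond to the colony-stimulating factor Csf1 that these fibroblasts secrete, which keeps part of the culture dividing.

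Counts of the 1 transcript kept for each gene summed to 13140001.5 to 26396832 per library. The deposited counts of all transcripts summed to 26897350.5 to 54772031.5. Levels below rest on the kept transcripts only. The macrophage markers had summed levels of 26610 to 27856 CPM (counts scaled to the library total, corrected by the trimmed mean of M-values) in the WT libraries and 27565 to 29145 CPM in the labelled-KO libraries, with all 16 detected in every library. WT number 2 stood apart from the other WT libraries on the first principal component and in stromal genes. On the first principal component of the 7 libraries, which held 50.7% of the variance, it lay at -1.3, while the other WT libraries lay at 24.1 to 33.2 and the labelled-KO libraries at -33.2 to -24.1. Genes of stromal cells moved with this. Their mean log2 CPM was 2.74 in WT number 2, -1.27 to 0.42 in WT numbers 1, 3 and 4 and 2.66 to 3.29 in the labelled-KO libraries, so 3 of the 4 WT libraries had low stromal levels and the rest did not. In such bulk RNA, fewer cells of a type and less RNA per cell cannot be told apart. Counts of called genes without WT number 2 are given beside the lists where they moved most. By another measure WT number 1 was the odd library. Chi-square per degree of freedom between libraries of a group was 28.51 to 33.28 for its pairs and 8.1 to 13.97 for all other pairs.

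The targeted gene came first as a check of the labels. Nr4a1 (NM_010444 on chromosome 15, 101253902 to 101274795 on mm10) stood at 13.4, 16.2, 15.2 and 14.0 CPM in WT numbers 1 to 4 and at 12.4, 12.2 and 12.4 CPM in labelled-KO numbers 2 to 4. Every labelled-KO library was below every WT library, but by little. The log2 fold change was -0.25 (SE 0.3), and the gene missed the threshold of 0.05 (adjusted p = 0.75 in the quasi-likelihood test of edgeR after Benjamini-Hochberg adjustment over all genes, the test used throughout). These levels therefore do not by themselves identify the knockout at 0 h, and a gene total does not show whether reads fall in a deleted part. The relatives Nr4a2 (1.45 to 1.66 CPM in WT, 1.13 to 1.43 in labelled KO) and Nr4a3 (0.375 to 0.559 and 0.265 to 0.815) did not pass either, at adjusted p = 0.52 and 0.64. After LPS, Nr4a1 was called lower in labelled KO at 4 h (log2 fold change -1.77, adjusted p = 0.04 in edgeR). At 18 h Nr4a1 was called higher in labelled KO (1.35, adjusted p = 0.023 in edgeR), as were Nr4a2 (1.0) and Nr4a3 (2.87).

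Of 12529 genes tested, 499 (3.98%) were called at an adjusted p under 0.05, 139 of them higher (1.11%) and 360 lower (2.87%) in the labelled-KO libraries. Over all genes the median log2 fold change was 0.007. CPM ranges of the groups did not overlap for 2219 genes (17.7% of those tested). Without WT number 2, 498 genes were called, and the share that was higher went from 27.9% to 37.1%. Leaving out labelled-KO number 2, 3 or 4 left 317, 315 or 314 calls. Of the genes called lower, 77 belonged to 4 lists of cell cycle genes and 283 did not.

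**Figure D1:**
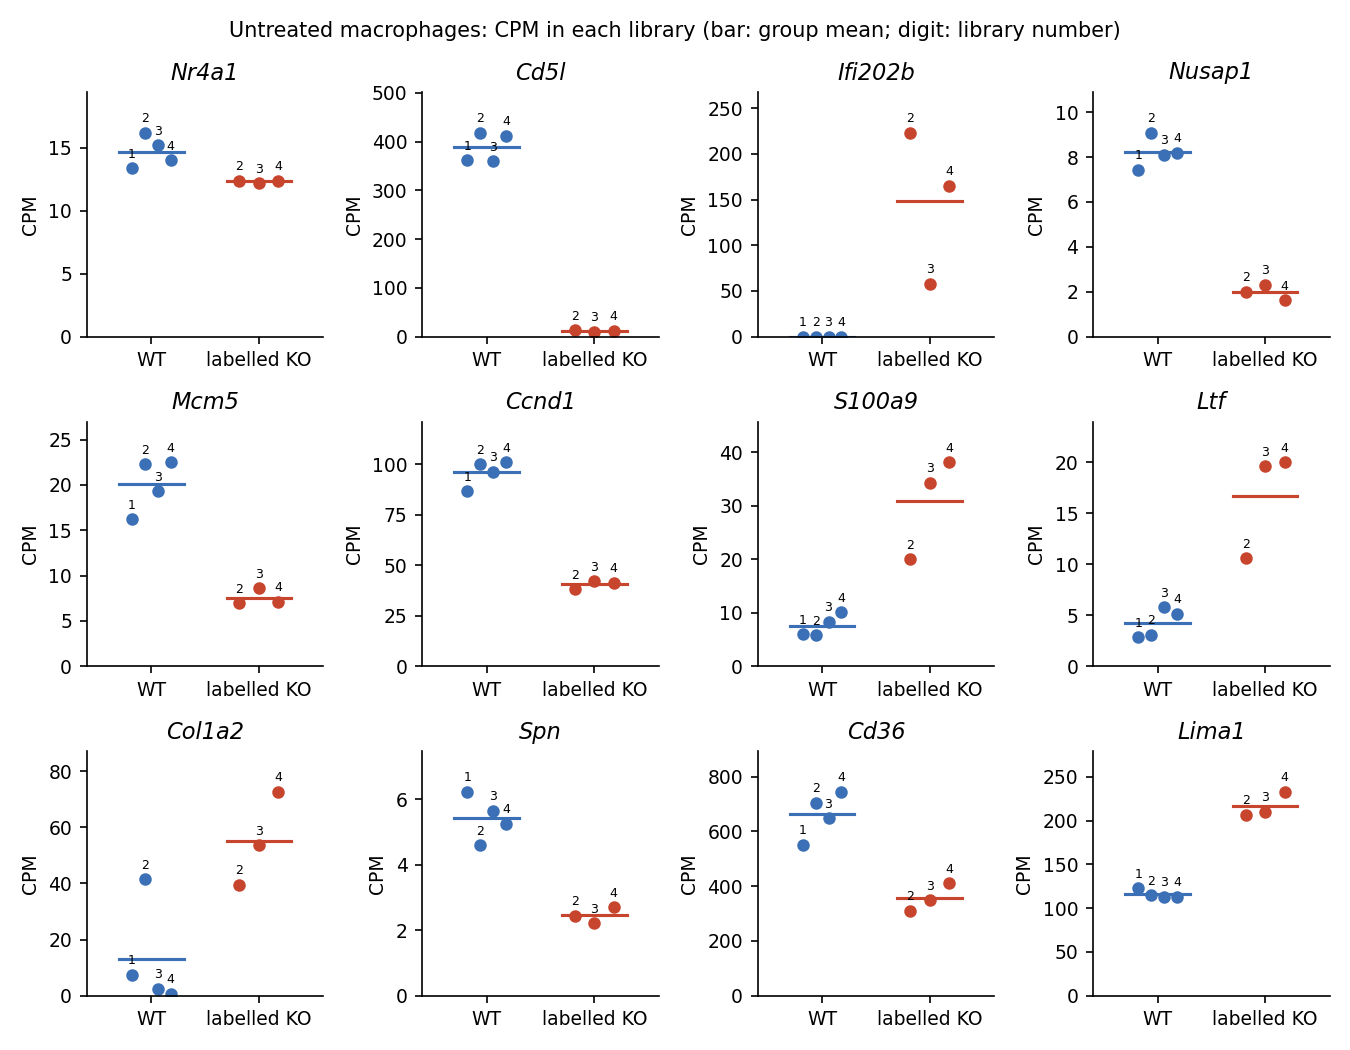
CPM of 12 genes (vertical axes, linear from 0) in the 4 WT and 3 labelled-KO libraries at 0 h. Each point is a library with its number, and the bar is the group mean. Groups do not overlap for genes such as Cd5l, Ccnd1 and Lima1, whereas WT number 2 lies with the labelled-KO libraries for Col1a2.

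Genes of cell division were lower in the labelled-KO libraries. Of 48 tested genes of mitosis and chromosome segregation, 40 were lower and 0 higher, against 2.87% of all genes lower, and their median log2 fold change was -1.33. The summed level of the list was 687, 797, 694 and 674 CPM in WT numbers 1 to 4 and 398, 404 and 376 CPM in labelled-KO numbers 2 to 4. No labelled-KO library came near a WT library, and WT number 2 had the highest sum. For 46 of the 48 genes the groups did not overlap, with the WT libraries higher, against 17.7% of all genes not overlapping in either direction. Without WT number 2, 36 of the genes were lower, and without labelled-KO number 4, 27. The count was 23 when each group lost its library highest in stromal genes. DESeq2 and limma-voom each called 43 lower, and 0 members of any of the 4 cell cycle lists were higher by edgeR's unadjusted p under 0.05, DESeq2 or limma-voom.

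The mitotic genes covered each step of division. Top2a, the topoisomerase that untangles sister chromatids, stood at 37.7, 56.9, 44.9 and 42.5 CPM in WT and at 16.4, 15.9 and 15.0 CPM in labelled KO. It fell by 1.53 on the log2 scale (SE 0.15, adjusted p = 1.2e-06 from the edgeR fit with Benjamini-Hochberg adjustment). Mki67, which coats mitotic chromosomes, ranged from 61.9 to 99.0 CPM in WT and from 25.9 to 31.1 CPM in labelled KO. Its log2 fold change was -1.37, and its highest WT value was that of number 2. The spindle checkpoint kinase Bub1, the mitotic kinase Plk1 and the cyclin Ccnb1 had log2 fold changes of -1.58, -1.54 and -1.63 and were all called lower, Plk1 and Ccnb1 not so without labelled-KO number 4 (adjusted p = 0.059 and 0.053 in edgeR). Tpx2, which nucleates spindle microtubules, was at 13.3 to 17.0 CPM in WT and 5.82 to 8.33 CPM in labelled KO. Not every member moved as far. The kinase Cdk1 was called at a smaller log2 fold change of -0.76, the kinase Aurkb missed the threshold (log2 fold change -0.57, adjusted p = 0.1), and the centromeric histone Cenpa was the 1 member with a positive value, 0.17.

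The promoters of the 3 mitotic genes with the largest falls are shown because the list moved together and such genes are known to share short promoter elements. Cep55, which brings the abscission machinery to the bridge between daughter cells, was at 4.95 to 5.56 CPM in WT and 0.926 to 1.69 CPM in labelled KO. Nusap1, which bundles spindle microtubules, was at 7.43 to 9.08 and 1.63 to 2.32 CPM. Cenpf, a kinetochore protein, was at 7.31 to 12.1 and 2.11 to 2.54 CPM. Each sequence runs from 250 bases before to 50 bases after the first start site listed for the gene in RefSeq on GRCm38.p6, 5′ to 3′ on the gene's strand, and capitals mark matches to TTTGAA (the cell cycle genes homology region, CHR) or CCAAT in either orientation.
Cep55 (chr19:38054734-38055033, + strand): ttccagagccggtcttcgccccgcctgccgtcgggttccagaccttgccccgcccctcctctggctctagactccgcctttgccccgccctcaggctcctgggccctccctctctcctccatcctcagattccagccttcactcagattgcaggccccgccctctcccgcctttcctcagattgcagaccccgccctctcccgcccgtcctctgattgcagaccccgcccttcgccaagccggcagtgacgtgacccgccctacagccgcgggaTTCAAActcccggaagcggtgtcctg
Nusap1 (chr2:119618048-119618347, + strand): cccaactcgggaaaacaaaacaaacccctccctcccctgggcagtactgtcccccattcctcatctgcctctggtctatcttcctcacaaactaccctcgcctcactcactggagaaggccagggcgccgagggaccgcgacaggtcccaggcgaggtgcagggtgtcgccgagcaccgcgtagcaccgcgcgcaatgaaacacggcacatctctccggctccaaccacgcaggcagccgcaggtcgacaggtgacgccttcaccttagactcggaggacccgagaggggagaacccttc
Cenpf (chr1:189688037-189688336, - strand): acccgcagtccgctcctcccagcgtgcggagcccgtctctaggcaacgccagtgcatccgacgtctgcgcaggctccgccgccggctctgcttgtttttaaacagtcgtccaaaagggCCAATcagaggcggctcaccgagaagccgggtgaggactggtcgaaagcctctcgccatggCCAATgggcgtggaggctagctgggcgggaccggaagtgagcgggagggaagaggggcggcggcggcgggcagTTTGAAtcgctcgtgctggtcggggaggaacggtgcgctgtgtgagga
In these windows Cenpf held 1 CHR and 2 CCAAT matches, Cep55 1 CHR match, and Nusap1 none of either.

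Over the list the CHR letters were common. A promoter was found for 41 of the 48 mitotic genes, and 32 of them (78.0%) held TTTGAA on either strand, against 12.2% of 9984 tested genes with a promoter and 18.1% of all 27025 promoters of the table. CCAAT stood in 30 of the 41 (73.2%), against 39.3% of the tested genes and 37.9% of all promoters. GGCGGGAA, an E2F site spelled in 1 of its forms, was in 0 of the 41 mitotic promoters and in 7 of 31 replication promoters (22.6%), against 4.21% of the tested genes and 2.24% of all promoters. TTTGAA was in 4 of those 31 (12.9%). Overlapping matches were counted for each motif on its own. These are matches of letters in a window, not measured sites.

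Genes of DNA synthesis were lower to a smaller degree. Of 36 tested genes of DNA replication, 21 were lower and 0 higher, against 2.87% and 1.11% of all genes. The list had a median log2 fold change of -0.69, and all 36 had negative values. Summed levels were 482 to 579 CPM in WT and 356 to 369 CPM in labelled KO. The thymidine kinase Tk1 was at 3.89, 4.74, 5.52 and 5.39 CPM in WT and 1.69, 0.985 and 1.22 CPM in labelled KO (log2 fold change -1.91, SE 0.27). Uhrf1, which guides maintenance DNA methylation to the fork, and Clspn, the claspin of the replication checkpoint, had log2 fold changes of -1.72 and -1.55. Pcna, the sliding clamp, was at 117 to 149 CPM in WT and 101 to 112 CPM in labelled KO and did not pass (log2 fold change -0.34, adjusted p = 0.059). Without WT number 2, 19 replication genes were lower, and without labelled-KO number 4, 14.

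The 6 subunits of the replicative helicase, Mcm2 to Mcm7, were each called lower at 0 h, with log2 fold changes of -0.76 for Mcm2, -0.58 for Mcm3, -0.46 for Mcm4, -1.41 for Mcm5, -0.57 for Mcm6 and -0.76 for Mcm7. Mcm5 fell most, from 16.2, 22.3, 19.3 and 22.5 CPM in WT to 6.94, 8.62 and 7.11 CPM in labelled KO. Mcm3 was at 23.0 to 29.8 CPM in WT and 17.2 to 18.4 CPM in labelled KO. All 6 were also called lower after 4 h and after 18 h of LPS. At 0 h Mcm3 lost its call without labelled-KO number 4 (adjusted p = 0.058 in edgeR), and Mcm4 on leaving out any of 5 libraries (highest adjusted p = 0.11).

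Against 2.87% lower and 1.11% higher over all genes, 7 of 16 tested genes of homologous recombination were lower and 0 higher (median -0.72). They included Brca1, a ubiquitin ligase subunit that promotes this repair, at 5.19, 8.5, 6.92 and 5.91 CPM in WT and 2.7, 2.61 and 2.59 CPM in labelled KO (log2 fold change -1.33, SE 0.24). Fancd2, of the crosslink repair pathway, was called at a log2 fold change of -1.71 but lost its call when any of 6 single libraries was left out (highest adjusted p = 0.17). Dropping labelled-KO number 4 left a count of 4 for the list, and dropping WT number 2 a count of 5.

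Of 26 tested genes of the G1 phase (median -0.29), 9 were lower and 0 higher, against 2.87% and 1.11% of all genes. Ccnd1, the D-type cyclin that growth factors induce, stood at 86.7, 100.0, 96.4 and 101 CPM in WT and 38.2, 42.2 and 41.3 CPM in labelled KO. It fell by 1.24 on the log2 scale (SE 0.08, adjusted p = 4.2e-09 in edgeR after Benjamini-Hochberg adjustment), and the groups were far apart. The repressor E2f8 (5.6 to 7.21 CPM and 2.22 to 2.71 CPM) and the S-phase cyclins Ccne1 and Ccne2 (log2 fold changes -1.13 and -0.97) were also lower, Ccne1 not so without labelled-KO number 4 (adjusted p = 0.12 in edgeR). The transcription factor Myc had a log2 fold change of -1.06 and was called. The Cdk inhibitors were not called, among them Cdkn1a (119 to 138 CPM in WT, 106 to 138 CPM in labelled KO, adjusted p = 0.89) and Cdkn1b (42.8 to 65.2 and 40.6 to 43.6 CPM, adjusted p = 0.44). Without WT number 2 the count for the list was 5. Median-of-ratios and upper-quartile factors gave the same counts as above for the 4 cell cycle lists.

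**Figure D2:**
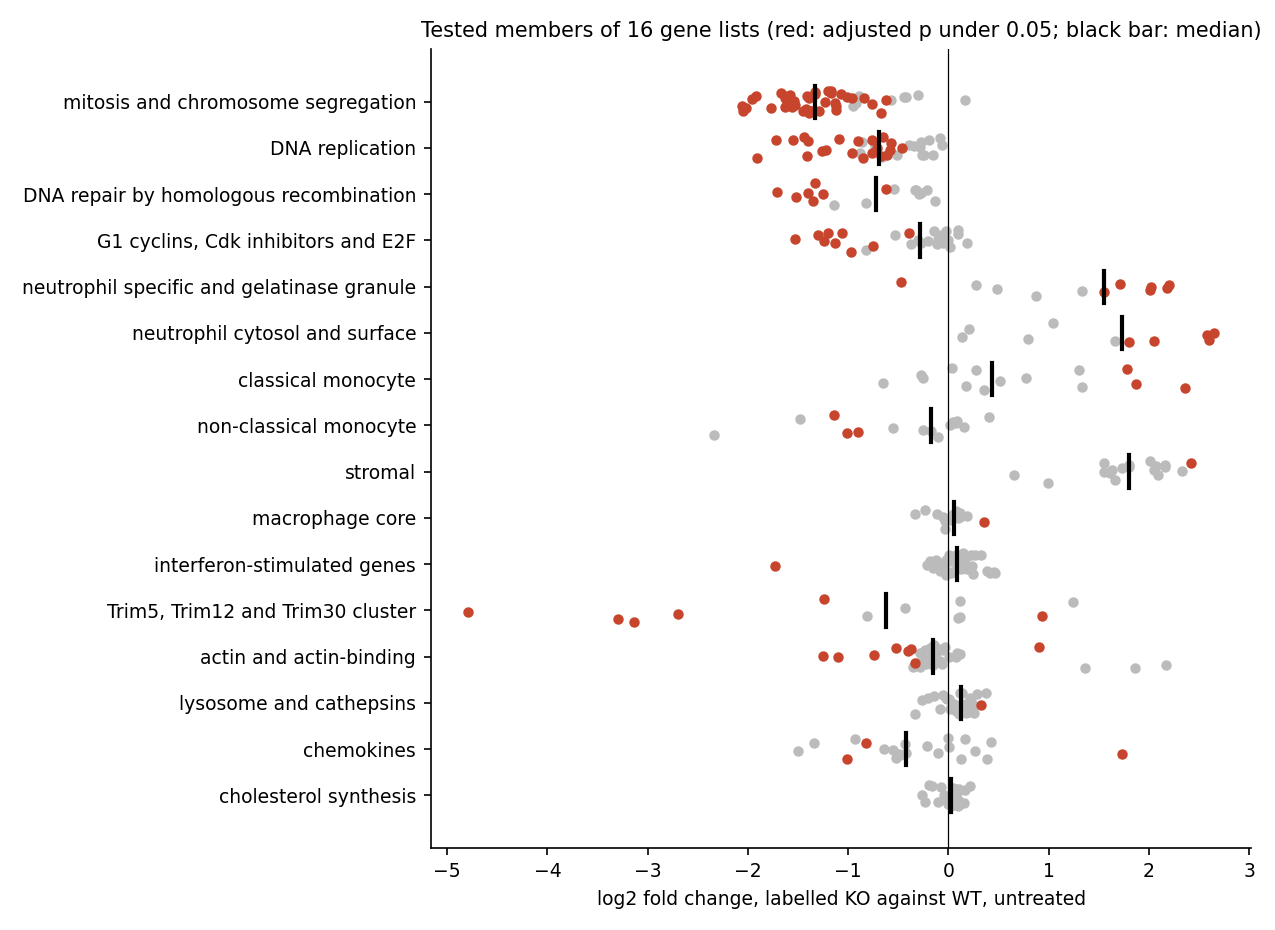
Log2 fold change at 0 h (horizontal axis, labelled KO against WT) of the tested members of 16 gene lists, 1 point per gene, with called genes in red and the list median as a black bar. The mitosis list lies to the left with a median of -1.33, the neutrophil and stromal lists lie to the right, and the macrophage and cholesterol synthesis lists lie near 0.

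Neutrophil genes were higher in the labelled-KO libraries. Granule proteins of neutrophils are made in fixed order in the marrow, primary (azurophil) granules first and specific granules later. Of 11 tested genes of specific and gelatinase granules 6 were higher, against 1.11% of all genes, and of 10 tested genes of the cytosol and surface 5 were higher. The medians were 1.55 and 1.73. Lcn2, an iron-siderophore binding protein, was at 0.798, 0.977, 2.06 and 2.3 CPM in WT and at 4.98, 8.38 and 6.48 CPM in labelled KO (log2 fold change 2.2, SE 0.3). Ltf, lactoferrin, was at 2.82 to 5.78 CPM in WT and 10.6 to 20.0 CPM in labelled KO. The chemokine receptor Cxcr2 was at 0.141 to 0.263 CPM and 0.9 to 1.43 CPM. S100a9, of the calprotectin pair, was at 5.99, 5.75, 8.32 and 10.1 CPM in WT and 20.0, 34.3 and 38.1 CPM in labelled KO. For each of these genes all labelled-KO libraries were above all WT libraries, and labelled-KO number 2 was below number 3. For Lcn2, Ltf and S100a9 such a separation was part of the naming rule.

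Summed over all members, the cytosol and surface list stood at 144 to 162 CPM in WT and 197 to 218 CPM in labelled KO, and the granule list, most of it Adam8, at 408 to 563 and 331 to 420 CPM. The part of neutrophils in other results was not tested. The levels were low beside those of the macrophage genes, and they were not even over the neutrophil program. Of the 7 genes of azurophil granules only Ctsc passed the filter on low counts, and it is also a macrophage gene (495 to 646 CPM in WT, 527 to 759 CPM in labelled KO, adjusted p = 0.63). Mpo, Elane and Prtn3, the defining enzymes of that granule, had highest values of 0.296, 0.0493 and 0.187 CPM in any library. Ly6g, the surface marker used to sort mouse neutrophils, was at most 0.0985 CPM. Csf3r, the receptor for the neutrophil growth factor and also present on monocytes, did not pass (97.8 to 108 CPM and 107 to 126 CPM, adjusted p = 0.41). Adam8, a metalloproteinase, was the 1 granule member that was lower (382 to 527 CPM and 278 to 340 CPM), a call lost without labelled-KO number 2 or WT number 4 (highest adjusted p = 0.12). Without WT number 1 or labelled-KO number 4 the count of granule genes that were higher was 3, and without WT number 2 it was 6.

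Few markers of monocyte subsets were called. Of 14 tested genes of classical monocytes 3 were higher, against 1.11% of all genes, and 0 lower (1 lower at an unadjusted p under 0.05 and by limma-voom, 0 by DESeq2). Ly6c2, the defining surface protein, was at 0.109 to 0.35 CPM in WT and 0.635 to 1.19 CPM in labelled KO (adjusted p = 0.0033 from the edgeR fit with Benjamini-Hochberg adjustment, and 0.053 without labelled-KO number 4). Chil3, a chitinase-like secreted protein, was at 1.49 to 5.52 and 6.67 to 13.9 CPM. Ccr2, the chemokine receptor that draws these monocytes out of the marrow, lay on the other side without passing the test (16.7 to 20.8 CPM in WT, 10.1 to 13.4 CPM in labelled KO, log2 fold change -0.65, adjusted p = 0.12). The count of higher genes was 1 without labelled-KO number 4 and 0 when the library highest in stromal genes was dropped from each group. Of 15 tested genes of non-classical monocytes, 3 were lower, against 2.87% of all genes, and 0 higher (1 higher at an unadjusted p under 0.05, 0 by DESeq2 and limma-voom). Spn (CD43), which marks that subset, was at 6.23, 4.59, 5.65 and 5.25 CPM in WT and 2.44, 2.22 and 2.7 CPM in labelled KO (log2 fold change -1.14, SE 0.2). Cx3cr1, the other common marker, overlapped between the groups (13.2 to 24.1 and 17.4 to 19.2 CPM, adjusted p = 0.88). Cd36, a receptor for fatty acids and oxidized lipoprotein, was at 552 to 745 CPM and 310 to 411 CPM. Its call was lost on leaving out any of 5 libraries, and that of Treml4 on leaving out any of 6. The count for the list was 1 without WT number 2, and 1 without any single labelled-KO library.

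Stromal genes were shared between the labelled-KO libraries and WT number 2. All 18 tested had positive log2 fold changes, with a median of 1.8, but 1 was called (1.11% of all genes were called higher). Summed levels were 38.6, 206, 15.1 and 7.87 CPM in WT numbers 1 to 4 and 198, 259 and 347 CPM in labelled KO. The collagen gene Col1a2 was at 7.48, 41.5, 2.5 and 0.656 CPM in WT and at 39.5, 53.7 and 72.7 CPM in labelled KO. Without WT number 2, 11 stromal genes were higher. With the stromal mean as a covariate, 386 genes were called in all and 40 mitotic genes were lower. When each group lost its library highest in stromal genes, 270 genes were called, and the lower counts were 23 for mitosis, 12 for replication, 3 for homologous recombination and 5 for the G1 list. The part of stromal cells in the other results was not tested beyond this.

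Cd5l had the largest fall among called genes that reached a mean of 2 CPM in the higher group. Cd5l is a secreted scavenger receptor protein that prolongs macrophage survival and is a target of liver X receptors. It was at 362, 418, 360 and 412 CPM in WT and at 13.2, 10.2 and 11.8 CPM in labelled KO, a log2 fold change of -5.05 (SE 0.17, adjusted p = 2.1e-14 in edgeR after Benjamini-Hochberg adjustment). The list of liver X receptor targets is given beside it, and a part of these receptors in the fall was not tested. Of 20 tested, the lipoprotein lipase Lpl was the other member that was lower (2084 to 2298 and 952 to 1219 CPM), and the phospholipid transfer protein Pltp was higher (400.0 to 527 and 647 to 676 CPM). The list thus gave 2 lower and 1 higher, against 2.87% and 1.11% of all genes. Lpl lost its call without labelled-KO number 2 or 3, and Pltp without any of 6 libraries. Of 23 tested genes of cholesterol synthesis 0 were called by edgeR, DESeq2 or limma-voom, and 0 had an unadjusted p under 0.05 by edgeR.

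Of 22 tested receptors for dying cells and modified lipids and their ligands, 4 were lower and 3 higher, against 2.87% and 1.11% of all genes. The count of higher genes was 0 on leaving out any labelled-KO library or WT number 4, and with the stromal mean as a covariate, whereas that of lower genes moved by less than 1.5 times in every alternative run. Msr1, the class A scavenger receptor, was at 274, 257, 252 and 254 CPM in WT and 154, 140 and 168 CPM in labelled KO (log2 fold change -0.75, SE 0.11). The integrin chain Itgav, which binds apoptotic cells through bridging proteins, was at 75.7 to 94.6 and 43.9 to 59.6 CPM. The kinase Mertk and its ligand Gas6 were higher by smaller amounts, at log2 fold changes of 0.36 and 0.32. Their calls were lost on leaving out any of 5 and 7 libraries. Mrc1, the mannose receptor, overlapped between groups (948 to 1120 and 924 to 1092 CPM, adjusted p = 0.96).

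Genes of the actin cytoskeleton leaned lower, 37 of 45 with negative log2 fold changes (48.5% of all genes tested), and 7 were called lower and 1 higher, against 2.87% and 1.11% of all genes. The lower count was 3 without labelled-KO number 2, and the higher count was 3 without WT number 2. Capza1, which caps the barbed end of filaments, was at 124, 148, 149 and 138 CPM in WT and 59.4, 65.3 and 71.4 CPM in labelled KO (log2 fold change -1.1, SE 0.09). Diaph3, a formin that elongates filaments, was at 7.78 to 10.2 and 2.91 to 4.18 CPM. Flna, the crosslinking filamin, had a log2 fold change of -0.52, a call lost without labelled-KO number 2 (adjusted p = 0.081 in edgeR). Lima1, which bundles filaments, went the other way, from 123, 115, 113 and 113 CPM in WT to 207, 210 and 233 CPM in labelled KO (log2 fold change 0.9, SE 0.08, adjusted p = 1.4e-07 from the edgeR fit with Benjamini-Hochberg adjustment). Actb, beta-actin, overlapped (4101 to 4687 and 4008 to 4175 CPM, adjusted p = 0.44). Of 34 tested integrin and podosome genes 5.88% were called and of 32 lysosomal genes 3.12%, shares near the 3.98% of all genes. The lysosomal genes still leaned higher, 24 of 32 with positive values. Their summed level was 43710 to 48768 CPM in WT and 49435 to 52084 CPM in labelled KO. Ranges did not overlap for 13 with labelled KO higher and 2 with WT higher, against 17.7% of all genes in either direction.

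Of 20 tested genes of the Bcl2 family and death receptors, 1 was higher and 2 were lower, against 1.11% and 2.87% of all genes. The receptor gene Tnfrsf10b (death receptor 5) rose from 0.772, 0.868, 0.263 and 0.656 CPM to 4.71, 6.5 and 4.52 CPM (log2 fold change 2.98, SE 0.29). The proapoptotic genes Pmaip1 (25.1 to 33.8 and 12.8 to 15.8 CPM) and Bid (20.9 to 26.5 and 11.5 to 16.5 CPM) were lower. Irak4, the kinase that Toll-like receptors share, was at 64.3, 56.4, 59.9 and 51.6 CPM in WT and 40.2, 37.2 and 37.7 CPM in labelled KO (log2 fold change -0.6, SE 0.09). Of 22 tested immediate early genes 1 was higher and 2 were lower, against 1.11% and 2.87% of all genes. Dusp1 (16.4 to 23.3 and 8.74 to 10.7 CPM) and Fos (54.3 to 64.0 and 35.4 to 42.6 CPM) were the lower ones. Ier3 was higher (21.7 to 24.2 and 28.0 to 38.3 CPM, log2 fold change 0.49), a call lost without labelled-KO number 2, WT number 1 or WT number 3. Of 22 tested chemokine genes 1 was higher and 2 were lower, against 1.11% and 2.87% of all genes, with a median log2 fold change of -0.42. Ccl8 was higher (1.23 to 2.19 and 4.56 to 8.63 CPM). Cxcl14 (8.92 to 13 and 3.97 to 5.81 CPM) and Cxcl2 (3.26 to 4.12 and 1.82 to 2.32 CPM) were lower, and the count of lower chemokines was 0 without labelled-KO number 2 or without WT number 3. The list of NF-kB cytokines and mediators also gave 1 higher gene (Lcn2) and 2 lower genes, of 30 tested, beside the same shares of all genes. Its lower members were Tnf (6.57 to 11.4 and 3.74 to 6.21 CPM), the tumour necrosis factor, and Il1rn (30.2 to 47.4 and 20.0 to 27.2 CPM), the interleukin 1 receptor antagonist. Both lost their calls without labelled-KO number 2. Tnfrsf11a, the receptor RANK through which osteoclast precursors are induced, was at 102 to 105 CPM in WT and 75.9 to 79.6 CPM in labelled KO.

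Receptors of the Fc and C-type lectin families gave 4 lower and 2 higher genes of 21 tested, against 2.87% and 1.11% of all genes. Dropping either WT number 1 or labelled-KO number 4 brought the lower count to 2, and the higher count was 0 when only the 0 h libraries entered the fit. Fcrl1, an Fc receptor-like protein best known from B cells, was at 9.5, 8.03, 9.98 and 9.52 CPM in WT and 2.65, 1.72 and 2.37 CPM in labelled KO (log2 fold change -2.04, SE 0.24). Fcrls, a scavenger receptor of the same family, was at 546 to 677 and 421 to 467 CPM. Fcer1g, the signalling chain shared by activating Fc receptors, had a log2 fold change of -0.42, and Clec4e, the lectin Mincle, of -0.99. Fcrlb was at 1 count in all WT libraries together and 26 in labelled KO, a ratio of 43 (95% counting interval 7.06 to 1760). The call of Clec4e was lost on leaving out WT number 1, or either of labelled-KO numbers 3 and 4 (highest adjusted p = 0.12 in edgeR), and that of Fcer1g on leaving out any of 5 libraries (highest 0.18).

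Several genes outside these groups had large differences. Zdhhc2, a palmitoyltransferase, was at 3.22, 4.92, 4.42 and 2.62 CPM in WT and at 0.106, 0.0985 and 0.148 CPM in labelled KO, which is 414 counts against 8 and a ratio of 31.3 (95% counting interval 15.7 to 73.0). Eya1, a transcriptional coactivator with phosphatase activity, was at 9.8 to 24.5 and 0.477 to 0.852 CPM. Spats2 (4.12 to 4.87 and 0.852 to 1.48 CPM) was also lower. In the other direction, the adrenergic receptor gene Adra1a was at 7.16, 10.1, 10.9 and 11.8 CPM in WT and 29.5, 37.0 and 39.6 CPM in labelled KO (log2 fold change 1.84, SE 0.24). The potassium channel gene Kcnj10 was at 1.09 to 1.36 and 4.88 to 8.41 CPM, and the kinase gene Dclk2 at 0.398 to 0.832 and 2.41 to 3.7 CPM. Ranges that do not overlap were part of the rule that named these genes, and 17.7% of all genes tested also had them.

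Interferon-stimulated genes varied across the groups rather than between them. Of 43 tested 1 was called (2.33%, against 3.98% of all genes), and the median was 0.09. Their summed level was 5352, 2814, 3190 and 3025 CPM in WT numbers 1 to 4 and 5254, 2537 and 3298 CPM in labelled KO, so WT number 1 and labelled-KO number 2 were high together. The called gene was Ddx58, the viral RNA sensor RIG-I, at 142, 81.5, 85.6 and 81.0 CPM in WT and 43.5, 22.4 and 22.4 CPM in labelled KO (log2 fold change -1.73, SE 0.21). Within each group it was highest in the library with the high interferon sum. Members of 2 interferon-induced families had larger differences, and since these families hold near-identical copies, their counts are uncertain. Ifi202b, of the DNA-binding p200 family, had 7 counts in all WT libraries together and 9826 in the labelled-KO libraries, which stood at 223, 58.0 and 165 CPM. The ratio was 2320 (95% counting interval 1130 to 5770). Ifi209 of the same family was lower, at 187, 77.1, 88.5 and 74.1 CPM in WT and 36.7, 37.8 and 21.7 CPM in labelled KO. Of 12 tested genes of the cluster around Trim5, Trim12a and Trim30d, which hold viral restriction factors, 5 were lower and 1 higher. Over all genes, 2.87% were lower and 1.11% higher. Trim12a was at 13.9, 8.18, 10.2 and 10.3 CPM in WT and 0.529, 0.296 and 0.333 CPM in labelled KO.

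Called genes were not spread evenly over the chromosomes. On chromosome 3, 61 of 603 tested genes were called (10.1%), against 2.16% to 6.59% on the other autosomes and X. Runs of 10 neighbouring tested genes with at least 4 called numbered 104 of 12341 (0.843%) and merged into 14 neighbourhoods, 5 of them on chromosome 3. Genes named from here to the end of the next paragraph were picked by position after their values were seen. The neighbourhood around Cd5l (chromosome 3, 84666192 to 87500678 on mm10) held 9 called of 14 tested genes, 4 higher and 5 lower. The lower ones included Fcrls and Fcrl1, named above with the Fc receptors. Fcrlb lay in another neighbourhood, on chromosome 1. Further genes reported under other groups also lay in neighbourhoods, among them S100a9 on chromosome 3 and Cep55 on chromosome 19. So did Msr1 and Zdhhc2 on chromosome 8, Bid on chromosome 6, Trim12a on chromosome 7, and Ifi202b and Fh1 on chromosome 1. The part of position in the results of the lists was not tested. Tmem154, a membrane protein, was at 40.4 to 43.8 CPM in WT and 103 to 130 CPM in labelled KO. Rps3a1, a ribosomal protein gene with many processed copies, was at 304 to 331 and 124 to 139 CPM. On chromosome 14, 69555401 to 70520716, 8 of 19 genes were called and all were higher, among them Tnfrsf10b, Sorbs3 (12.4 to 15.5 and 34.0 to 36.4 CPM) and Phyhip (no count in any WT library, 0.887 to 1.16 CPM in labelled KO).

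The region of the targeted gene also held many calls. Within 10 Mb of Nr4a1 on chromosome 15, 15 of 112 tested genes were called (13.4%), 4 higher and 11 lower, against 5 of 369 (1.36%) on the rest of that chromosome. Lima1 and Irak4 were among them, 1.44 and 6.71 Mb away. Slc38a1, an amino acid transporter 4.66 Mb away, was at 79.2 to 88.0 CPM in WT and 39.8 to 42.7 CPM in labelled KO. The neighbouring copies Mettl7a1 (25.5 to 28.9 and 8.68 to 10.5 CPM) and Mettl7a3 (at most 0.0724 and 1.06 to 1.19 CPM) went in opposite directions, and reads shared between them make both uncertain. Acvrl1, a receptor of the TGF-beta family 0.13 Mb away, was at 13.1 to 18.9 and 28.0 to 31.9 CPM.

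**Figure D3:**
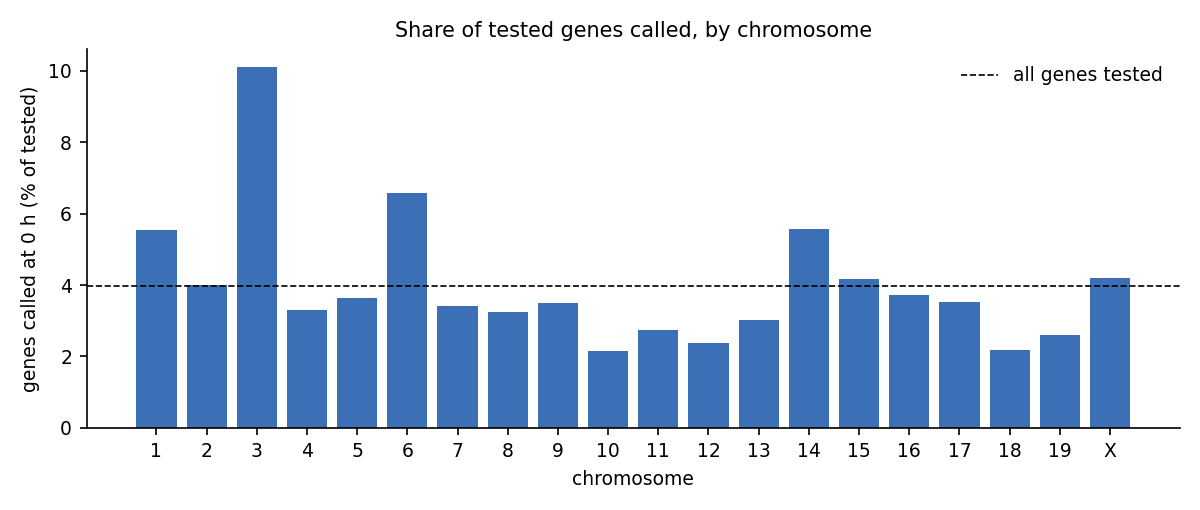
Share of tested genes called at 0 h (vertical axis, percent) on each chromosome, with the share over all genes as a dashed line at 3.98%. Chromosome 3 stands highest at 10.1%.

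The 0 h calls were followed in the libraries taken after LPS. These are other libraries, and the labels do not say whether they came from the same mice. After 4 h of LPS, 2.87% of all genes were called higher and 2.7% lower in labelled KO. Of the 139 genes higher at 0 h, 52 were higher again and 2 lower at 4 h. Of the 360 lower at 0 h, 102 were lower again and 10 higher. After 18 h, when 16.6% of all genes were called higher and 15.6% lower, 73 of the 139 were higher again and 13 lower, and 108 of the 360 were lower again and 64 higher. In all, 98 genes were called in the same direction at all 3 times, and 25 of them (25.5%) lay on chromosome 3. That chromosome held 603 of the 12526 tested genes with a position, and 61 of the 499 genes called at 0 h.

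Cd5l kept its difference, with log2 fold changes of -5.35 at 4 h and -5.37 at 18 h. Ifi202b (10.22 and 10.85), Trim12a (-4.91 and -4.68) and Capza1 (-1.2 and -1.17) likewise stayed close to their 0 h values. Lima1 was farther apart at 4 h, at a log2 fold change of 2.8, and the difference between the 4 h and 0 h genotype effects was itself called (1.91, adjusted p = 1e-09 in edgeR after Benjamini-Hochberg adjustment). Such tests of the difference share the 0 h libraries with the values that chose the genes.

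For mitotic genes the difference was smaller after LPS. At 4 h, 1 of the 48 was higher and 9 lower in labelled KO, against 2.87% and 2.7% of all genes (median -0.55). At 18 h, 5 were higher and 5 lower, against 16.6% and 15.6% of all genes (median -0.03). The genotype effect at 18 h was called higher than that at 0 h for 24 of the 48 and lower for none, against 8.57% higher and 9.0% lower over all genes. At 4 h against 0 h it was higher for 7 and lower for none, against 0.599% and 0.2% of all genes. For Top2a the log2 fold change went from -1.53 at 0 h to -0.72 at 4 h and 0.04 at 18 h, and the 18 h and 0 h effects differed by 1.57 (adjusted p = 0.00019 by the same test). For Ccnd1 it went from -1.24 to -0.73 and 0.11. The 36 replication genes gave 10 lower and 0 higher at 4 h (median -0.48), and 15 lower and 0 higher at 18 h (median -0.44). Of the 77 cell cycle genes lower at 0 h, 11 were lower at all 3 times, and the 6 helicase subunits were among these. Mcm2 was further down at 18 h, at -1.71, a difference of -0.96 from 0 h (adjusted p = 0.0013).

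**Figure D4:**
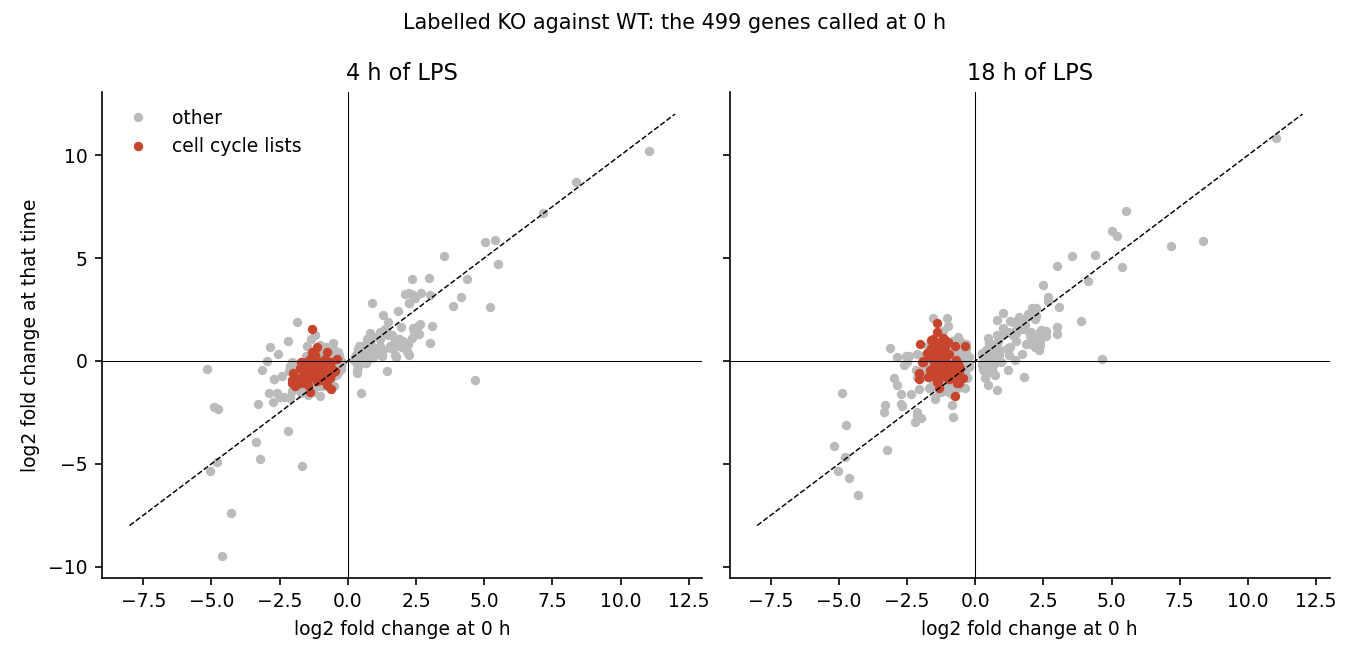
Log2 fold change (labelled KO against WT) at 4 h (left) and 18 h (right) of LPS, on the vertical axes, against that at 0 h, on the horizontal axes, for the 499 genes called at 0 h. Red points are the 77 genes of the cell cycle lists and the dashed line marks equal values; at 18 h many red points lie near 0 or above it.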

How the data were processed

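The authors deposited a table of estimated counts, 1 value per RefSeq transcript and library, in 0.5 steps without scaling to depth. Per the submitters' processing notes, the tools were CASAVA 1.8.2 and HISAT2 2.1.0 on mm10. How reads were counted, by strand or when shared, is not given here, which leaves near-identical copies and overlapping genes uncertain. Of the genes named by the rule below, 12 overlap another tested gene, among them Nusap1, Tk1, E2f8, Ccnd1, Trim12a and Pltp. Of 42361 transcripts, 42203 matched RefSeq and 65 GENCODE, and 93 without a gene name (0.232 to 2.229% of counts) were left out. The transcript of highest mean count stood for each of 25067 genes, rounded to whole counts. Counts of a gene's other transcripts entered only the alternative fit on summed transcripts.

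The test was the quasi-likelihood test of edgeR 4.0.16 (R 4.3.3), fitted to the 21 libraries as 6 groups with TMM factors and its default filter, with Benjamini-Hochberg adjustment over 12529 genes. It was tested on simulated data. Standard errors (SE) were derived from the fold change and F. Alternatives were DESeq2 1.42.0, limma-voom (limma 3.58.1), other factors and filters, a replicate block, summed transcripts, a stromal covariate, the 0 h libraries alone, and leaving out libraries. Counting intervals are 95% intervals of ratios of summed counts and cover counting error only. Promoters are RefSeq's on GRCm38.p6. Figures were drawn with matplotlib 3.10.9.

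The libraries compared, the 45 gene lists and the tests were chosen with earlier results of these data known. Genes named by rule were Nr4a1 and a set of fixed genes, up to 15 rises and 15 falls (called, at least 2 CPM in the higher group, ranges not overlapping), and up to 3 called members of each sign per list, without clone-named genes and pseudogenes. Other list members are named as examples, chosen after their values were seen. Libraries of the same group all differed by more than sampling noise.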

Additional observations from a re-analysis of the deposited data

Results flagged for a closer look

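Among the 4 WT libraries, the highest or lowest value stood far from the other 3 for 10 of 119 named genes, and chance flags about 1 in 20. WT number 1 stood apart for 6 of them. It was high for the interferon-induced genes Ifi209 (187 CPM, others 74.1 to 88.5), Trim34b (4.98, others 2.1 to 2.28) and Ddx58 (142, others 81.0 to 85.6). It was low for Fos (54.3, others 62.6 to 64.0), the glycolytic enzyme Pkm (467, others 508 to 513) and the transcription factor Ets2 (39.6, others 45.2 to 46.2). WT number 2 was high for the collagen gene Col1a2 (41.5 CPM, others 0.656 to 7.48) and Fcrlb (0.0362, others at 0) and low for the small GTPase gene Rnd1 (0.109, others 0.293 to 0.328). WT number 3 was high for Cxcr2 (0.263 CPM, others 0.141 to 0.16). The values of Fcrlb, Rnd1 and Cxcr2 rest on few counts.

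The genotype effect after LPS differed from that at 0 h, by edgeR's quasi-likelihood test of the difference with Benjamini-Hochberg adjustment over all genes, for 12 of the 60 tests over the 30 largest rises and falls, which share the 0 h libraries that chose them. The effect on the neutrophil gene Lcn2 changed by -1.82 at 4 h and -1.52 at 18 h on the log2 scale. Kcnj10 changed by -1.82 and Tnfrsf10b by -1.33 at 18 h. The falls of Zdhhc2 shrank by 2.67 at 4 h and 3.31 at 18 h, those of Trim30d by 2.68 and 3.78, and that of Trim5 by 1.8 at 4 h. At 18 h the falls of the mitotic genes Nusap1 and Cenpf shrank by 1.46 and 2.85, and that of Fcrl1 by 1.21. For Cenpf and Trim30d the fitted effect at 18 h was above 0.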

How the results depend on the processing

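The count of genes called at 0 h was 386 to 709 under 10 alternatives and 270 when each group lost its library highest in stromal genes, a fit with fewer libraries. Leaving out 1 library gave 314 to 498. The labels do not say whether equal numbers mark paired libraries. Deviations from group means correlated at -0.3, -0.05 and -0.34 between same-numbered labelled-KO and WT libraries at 0 h. Within a genotype, same-numbered libraries correlated at 0.02 to 0.32 between 0 h and 4 h and at -0.12 to 0.25 between 0 h and 18 h. These values do not settle the pairing. The replicate block gave 498 calls. Limma-voom called 709 genes, 37.5% of them higher. For the 4 h against 0 h difference, DESeq2 called 197 genes, the fit without the high stromal libraries 52, and leaving out 1 library 62 to 104. Leaving out 1 library gave 119 to 180 genes called alike at 0 and 4 h, 124 to 232 at 0 and 18 h, and 1528 to 2201 in the 18 h against 0 h difference. The causes were not tested. Of 94 named genes called, 50 kept their calls under each of the 18 alternatives that tested them, and 0 changed sign. Fcrl5 and Fcrlb, among the 50, were tested in 17. Genes of few counts, such as Fcrlb and Wfdc21, are limited by depth.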

Other observations

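Energy metabolism and complement were measured as further gene groups. Fh1, the fumarase of the citric acid cycle, was the 1 gene called of 27 tested (3.98% were called over all genes), at 34.1, 37.6, 39.8 and 37.1 CPM in WT and 74.1, 47.9 and 56.8 CPM in labelled KO (log2 fold change 0.68). Its call was lost without labelled-KO number 2, which had the highest value (adjusted p = 0.081 in edgeR). Of 22 genes of glycolysis, Pkm (467 to 513 and 389 to 410 CPM) and Pfkp (31.7 to 37.1 and 25.7 to 29.1 CPM) were lower, against 2.87% of all genes. Their calls were lost on leaving out any of 6 and 5 libraries. Of 27 genes of the respiratory chain 0 were called by edgeR, DESeq2 or limma-voom, and 5 had an unadjusted p under 0.05 by edgeR. Mgll, the monoacylglycerol lipase, was higher (4.98 to 7.36 and 12.7 to 18.0 CPM), the 1 gene called of 23 for fatty acid handling, beside the same 3.98% over all genes. Of 20 complement genes, C3 and the anaphylatoxin receptor C5ar1 were lower, at log2 fold changes of -0.66 and -0.42, against 2.87% of all genes. Calls of these 2 were lost on leaving out any of 4 and 6 libraries.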
